A study of Mus musculus with 6 samples.

Results

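The genes of the actin and myosin contractile apparatus were compared between interscapular brown fat and epididymal white fat of untreated male C57BL/6 mice, 10 to 12 weeks old and kept at ambient temperature. The members are the probe sets whose only gene symbol is a numbered myosin heavy chain (Myh), myosin light chain (Myl), troponin (Tnnc, Tnni, Tnnt) or tropomyosin (Tpm) gene, together with Acta1, Acta2, Actc1, Ttn and Des. A probe set is a group of short probes that reads 1 transcript on the array. The rule gave 79 probe sets of 41 genes, out of 45037 probe sets on the array. Each tissue was measured on 3 arrays of separate samples, each array giving a signal and a detection call (present, marginal or absent) for every probe set. The 3 brown and 3 white samples differ both in the type of fat and in its place in the body, which cannot be told apart. They are whole tissue, so that fewer cells of a type and less RNA per cell cannot be told apart either.

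Muscle contracts when myosin heads, built from heavy and light chains, pull on actin filaments. In skeletal and heart muscle the troponin complex and tropomyosin open the filament to myosin when calcium rises, while in smooth muscle and other cells phosphorylation of the myosin regulatory light chain switches the motor on. Skeletal muscle, heart, smooth muscle and non-muscle cells use different genes for these parts. Brown fat cells arise from a lineage shared with skeletal muscle, and fat cells of both kinds, vessels and the stroma around them use the smooth and non-muscle forms to hold their shape and tension. The members were sorted here into skeletal (12 genes), cardiac (11, including forms that slow skeletal muscle shares), smooth (3) and non-muscle (7) forms, and genes that serve several muscle types (6: Tpm1 to Tpm4, Ttn and Des). Myl10 and Tnni3k, a kinase named for its binding to cardiac troponin I, were kept apart.

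The CArG box, the DNA motif bound by serum response factor, is known from the promoters of actin and other contractile genes. RefSeq promoter windows (build GRCm38.p6) were found for 38 of the 41 genes, all but Myh11, Tnni2 and Tnnt3. In the 250 bases before the start, 7 of the 38 (18.4%) held a CArG box, against 1.62% of all 27025 genes in the table. They were Acta1, Actc1, Myh4, Myl3, Myl6, Myl7 and Myl9. By form these were 2 of 10 skeletal, 3 of 11 cardiac, 1 of 2 smooth, 1 of 7 non-muscle and 0 of 6 several-form genes. Only exact matches to CCWWWWWWGG (W is A or T) were counted, so a gene not named may hold a box that differs by 1 letter. Its consensus has 10 letters, reads the same on both strands and cannot overlap the MEF2 box or the E-box. The MEF2 box, bound by the muscle factor MEF2, was found in 4 of the 38 (10.5%; Myh1, Myh4, Myh8 and Ttn) against 3.42% of all genes, and the E-box CANNTG, bound by factors such as MyoD, in 78.9% against 69.3%. The TATA box, TATAAA, which can lie inside a CArG box, was in 5 of the 38 (13.2%) against 8.94%, all 5 of them skeletal forms (Acta1, Myh1, Myh3, Myh4 and Tnnt1). The TATA box was searched on the strand of the gene alone and the others on both. To show the shared box, 1 stretch from each of the 4 forms is printed 5′ to 3′ on the gene's strand, with the box in capitals. They are Acta1 at chr8:123894809-123894878 (minus strand), Actc1 at chr2:114052883-114052952 (minus strand), Myl9 at chr2:156775273-156775342 (plus strand) and Myl6 at chr10:128493020-128493089 (minus strand).
Acta1: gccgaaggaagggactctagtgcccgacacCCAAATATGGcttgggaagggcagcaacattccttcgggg
Actc1: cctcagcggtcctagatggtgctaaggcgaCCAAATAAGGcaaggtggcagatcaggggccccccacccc
Myl9: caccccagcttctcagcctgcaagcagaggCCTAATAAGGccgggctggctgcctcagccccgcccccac
Myl6: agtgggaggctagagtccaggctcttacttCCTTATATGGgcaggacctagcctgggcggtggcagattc
The 4 boxes lie between 161 and 38 bases before the start. A match describes the letters only, and no binding was measured.

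All 8 brown adipocyte markers, such as Ucp1, had more signal in brown, and all 8 white adipocyte markers, such as Lep, had more in white. The lists were drawn up with earlier results of these data known. The counts are therefore no independent check of the tissue labels. Between 35.6% and 37.5% of probe sets were called present on the brown arrays and between 45.2% and 45.8% on the white arrays, and the median deposited signal was 37.6 to 39.4 in brown and 52.1 to 52.5 in white. The ratio of the 3' to the 5' actin control probe sets, a measure of RNA integrity, was highest on brown replicate 2 at 2.24, against 1.19 to 1.73 on the other 5 arrays. Signals below are quantile-normalised, means are given ± SD with n = 3 arrays per tissue, and log2 differences are brown minus white ± SE. A probe set was tested if 3 or more of the 6 arrays called it present, with limma's moderated test and Benjamini-Hochberg adjustment over all 19819 probe sets tested. It is called higher in a tissue at an adjusted p under 0.05. Each gene outside the members was read on 1 probe set, the tested one with the highest mean log2 signal. If none was tested, the untested one with the highest mean was read. Calls of the other probe sets of these genes are not given. Nothing in the labels says how the replicates relate to single mice, so the p-values measure the spread between these samples.

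The forms differed first in whether they could be detected. Of the 79 probe sets, 41 were called present on no array and 15 on all 6. Of all 45037 probe sets, 13144 were called present on all 6. Per array, 35.6% to 37.5% of all probe sets were present in brown and 45.2% to 45.8% in white. Among 17 skeletal probe sets, 12 were present on no array, and among 17 cardiac probe sets 13 were. By contrast, 10 of 14 non-muscle probe sets were present on each white array, and 6 to 9 on the brown arrays. Smooth muscle forms were present for 3 of 6 probe sets on every white array and for 1 or 2 on the brown arrays. All 3 probe sets of Myl10 and Tnni3k were absent throughout.

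**Figure D1:**
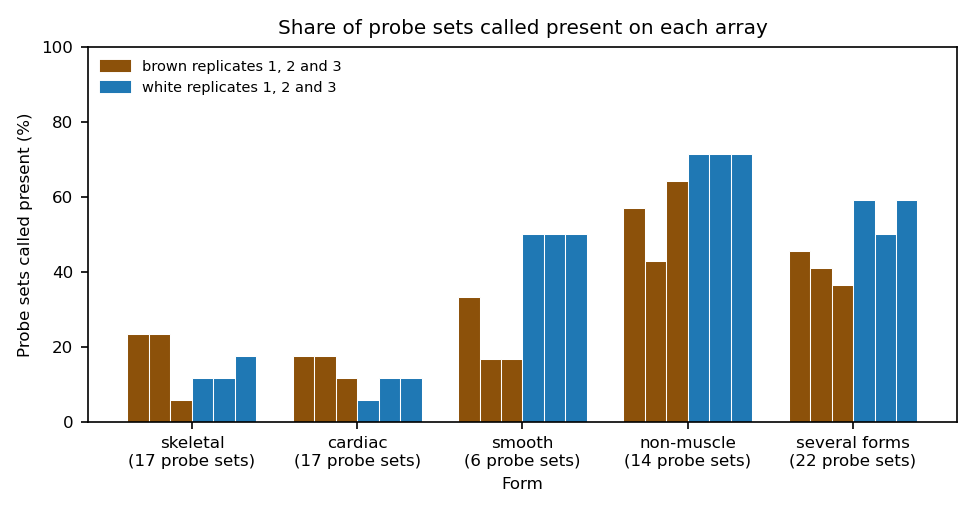
Share of the probe sets of each form called present (%), with 1 bar per array, brown replicates 1 to 3 and then white replicates 1 to 3 in each group. Skeletal and cardiac forms were mostly not called present in either tissue, and 10 of 14 non-muscle probe sets were present on each white array. Over all probe sets the shares were 35.6% to 37.5% on the brown arrays and 45.2% to 45.8% on the white arrays.

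In all, 30 probe sets of 18 genes passed the detection filter. Of these 5 were higher in brown (16.7%) and 16 in white (53.3%), while 24.6% and 29.9% of all tested probe sets were. The 3 brown and 3 white arrays did not overlap for 25 of the 30 (83.3%), as for 62.4% of all tested probe sets. The median log2 difference of the 30 was -0.81, against -0.06 over all tested probe sets. The filter itself favours differences, since 5 of the 30 were called present only on white arrays and 2 only on brown ones. Among the 15 members present on all 6 arrays the fit to such probe sets alone called 2 higher in brown and 9 in white, where the background is 31.2% and 30.0%. Probe sets of 1 gene are not independent: with 1 probe set per gene, 3 of 18 genes were higher in brown (Myl1, Des and Ttn; background 28.3%) and 10 in white (33.0%). With the deposited scaling, where the median of all tested probe sets was -0.53, 2 of the 30 were called towards brown and 20 towards white, against 12.8% and 54.4% of all tested probe sets.

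**Figure D2:**
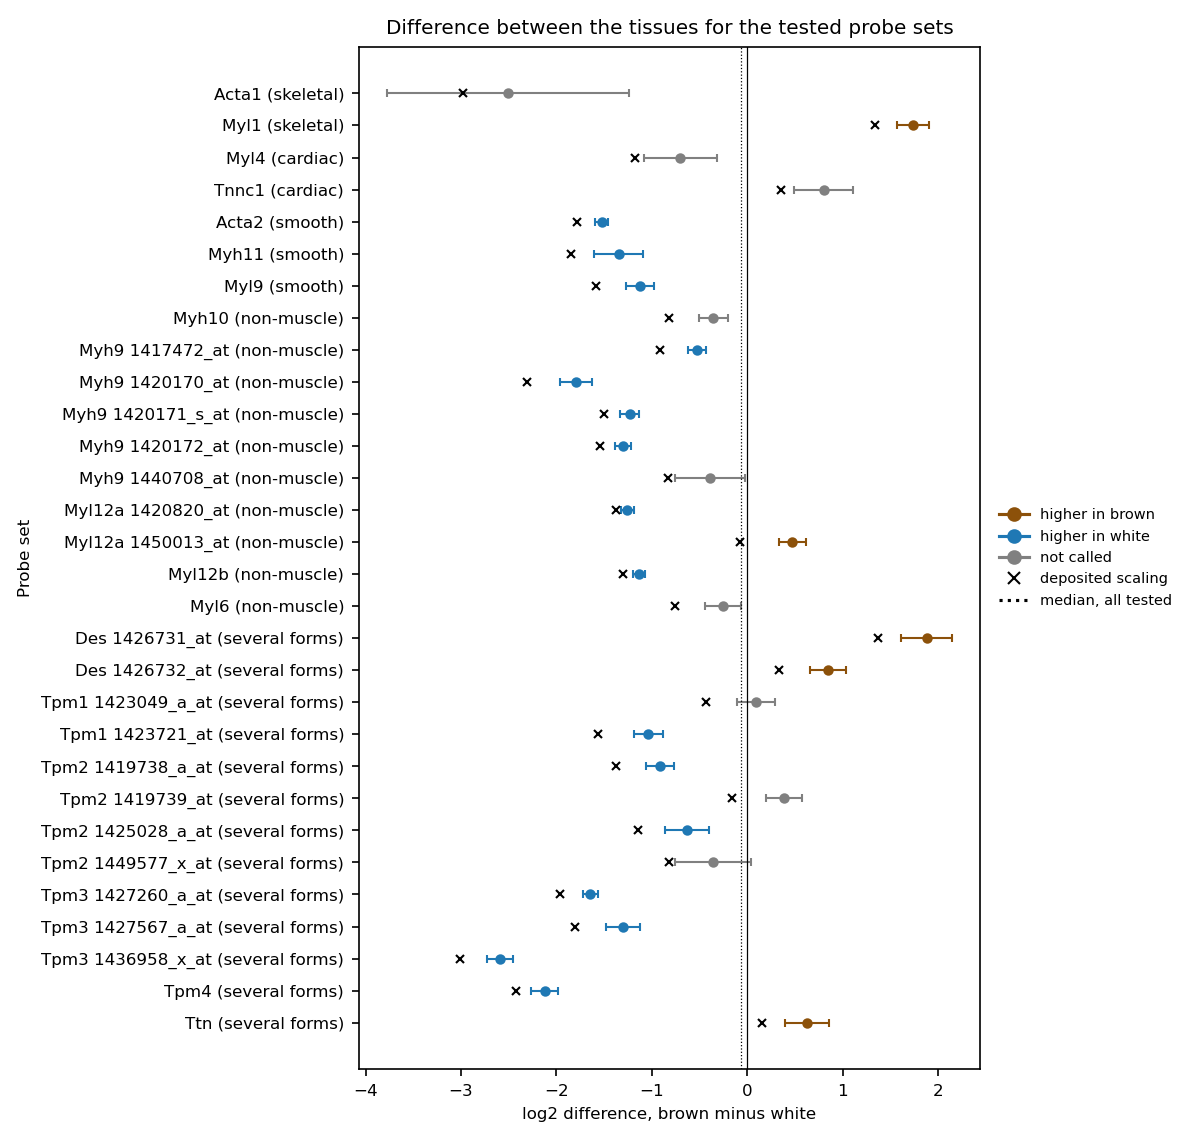
Log2 difference, brown minus white, of the 30 tested probe sets with its SE, grouped by form; crosses give the difference with the deposited scaling and the dotted line the median of all tested probe sets, -0.06. The smooth forms lie on the white side, and Myl1 and Des on the brown side.

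Among the skeletal forms, Myl1 stood alone. Myl1 encodes the essential light chain of fast skeletal myosin, and its probe set 1452651_a_at gave 845, 1053 and 1134 on the brown arrays and 392, 253 and 273 on the white arrays. It was called present on all 6 arrays, and the lowest brown array was above the highest white one. The mean was 1011 ± 149 in brown and 306 ± 75.1 in white, a 3.34-fold ratio of geometric means (log2 difference 1.74 ± 0.168, limma adjusted p = 1.28e-05). The difference was 1.34 with the deposited scaling and kept its call without any 1 array (adjusted p at most 0.000121). The chain's usual partners were not called in the same way. Mylpf, the fast regulatory light chain, was absent on all 6 arrays, at 43.3, 92.9 and 25.9 in brown and 2.58 to 3.78 in white. Also absent throughout were the fast troponins Tnnc2, Tnni2 and Tnnt3 and the slow troponins Tnni1 and Tnnt1.

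The heavy chains of adult fast muscle were near the limit of detection. Myh4 (probe set 1427026_at) gave 30.5 and 34.6 on brown replicates 1 and 2, where it was present, and 1.83 on brown replicate 3, where it was absent. The white arrays gave 10.4, 8.35 and 6.15, all absent. Myh1, another fast heavy chain, followed the same order among the brown arrays, with 26.4, 35.1 and 9.76 on probe set 1427520_a_at. It was present on the first 2 of these and absent on the third. Its x_at probe set 1427868_x_at gave 25.8, 48.0 and 1.31 in brown and 14.6 to 16.6 in white, present on brown replicate 1 and white replicate 3. The remaining probe sets of both genes, absent on all 6 arrays, were highest on brown replicate 3 among the brown arrays, with 5.53, 2.13 and 19.2 for Myh4 1458368_at and 3.29, 5.05 and 18.3 for Myh1 1452465_at. Myh2, which gave 38.3, 31.0 and 9.03 in brown and 4.06 to 4.74 in white, was absent on all 6 arrays, as were Myh3 and Myh8, the embryonic and perinatal heavy chains. The calcium pump of fast muscle, Atp2a1, had the same pattern of calls, present on brown replicates 1 and 2 only, at 134, 158 and 45.1 in brown and 51.4 to 53.6 in white. Myl1, in contrast, was highest on brown replicate 3.

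Acta1, the skeletal muscle actin, was higher in no tissue by the test. Its probe set 1427735_a_at gave 97.7, 145 and 2.16 on the brown arrays and 153, 224 and 164 on the white arrays. All white arrays were called present, but among the brown arrays only replicate 2 was. The white arrays lay above the brown ones, with means of 180.4 ± 38.0 and 81.6 ± 72.7 (log2 difference -2.51 ± 1.27, limma adjusted p = 0.122). Without brown replicate 3 the difference was -0.58 (limma adjusted p = 0.0606). Without brown replicate 2 the difference was -3.63 and was called (limma adjusted p = 0.0302), and it was also called with the deposited scaling (-2.98, adjusted p = 0.0496). The adjusted p over all alternatives that could be fitted reached its lowest with spike-in scaling, at 0.0105.

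**Figure D3:**
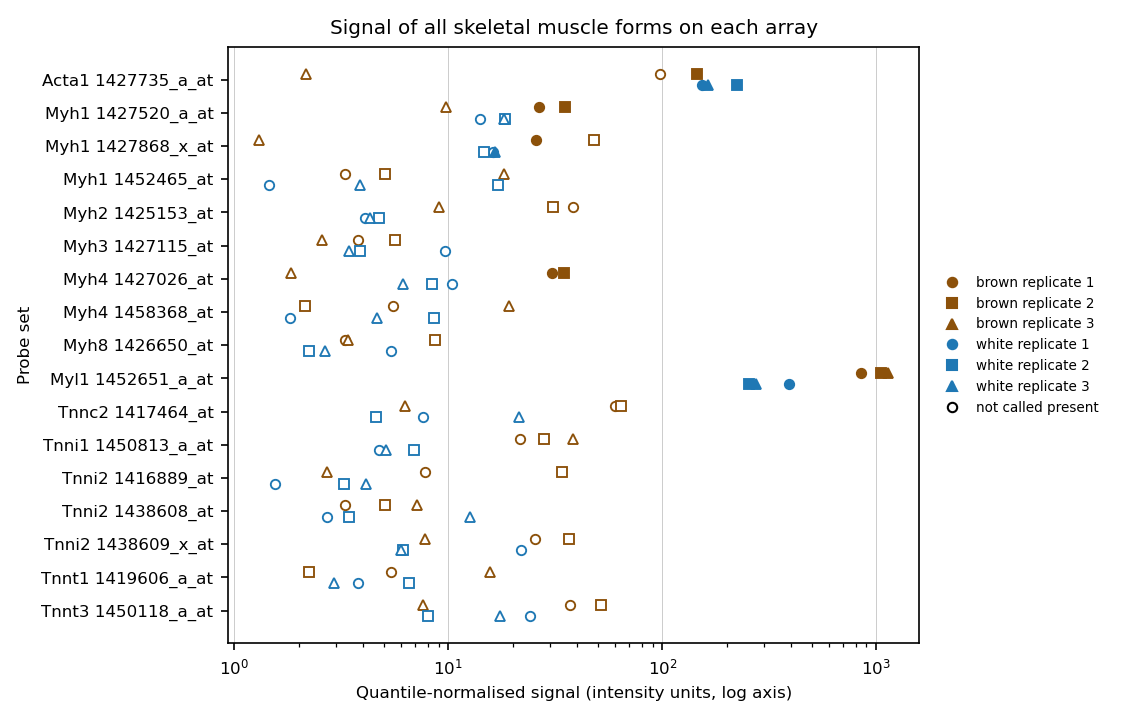
Quantile-normalised signal (log axis) of the 17 skeletal probe sets on each array, with open symbols where the probe set was not called present. Myl1 was present on all 6 arrays and higher in brown, while Myh1 1427520_a_at and Myh4 1427026_at were present on brown replicates 1 and 2 and absent on brown replicate 3.

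Other markers of skeletal muscle were largely undetected. Of 21 marker genes outside the members, such as Ckm, the muscle creatine kinase, and Mb, myoglobin, 16 were absent on all 6 arrays on the probe set read. Ckm and Mb were among them. The probe sets read for the myogenic regulators Myod1, Myog, Myf5 and Myf6 were also absent throughout. The summed signal of the 21 markers was 769 to 1179 on the brown arrays, highest on brown replicate 2, and 611 to 733 on the white arrays. Only Casq1, the calcium store protein of the sarcoplasmic reticulum (0.78, adjusted p = 0.0538), and the muscle enolase Eno3 (0.57, adjusted p = 0.052) were tested, and limma called neither. Both were called higher in brown with median centring over the tested probe sets, an alternative chosen after seeing the data. Over all alternatives, 0 to 2 of the 21 markers were called higher in brown and 0 in white. What these markers contribute to the Myl1 and heavy chain signals was not tested.

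The cardiac forms gave 0 calls of 2 tested probe sets by limma, and 1 at an unadjusted p under 0.05. Tnnc1, the calcium-binding troponin C of heart and slow muscle, was faint but present on all 6 arrays. It gave 34.7, 39.5 and 34.3 in brown and 17.3, 22.7 and 22.7 in white, so that the arrays did not overlap. The difference was 0.80 ± 0.312 with an adjusted p of 0.0533. With the deposited scaling it was 0.36 and was not called (limma adjusted p = 0.336). Leaving out any 1 array gave no call either (limma adjusted p 0.0779 to 0.145). It was called with 64 signal units added (0.24, adjusted p = 0.0353), without the trend (adjusted p = 0.00432) and when the fit held only probe sets present on each of the 6 arrays (adjusted p = 0.0214), and in the authors' deposited series table it was -0.12.

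Myl4, the light chain of the atria and of embryonic muscle, gave 54.1, 49.0 and 19.4 in brown and 55.6, 71.1 and 55.9 in white on probe set 1422580_at (-0.70 ± 0.379, limma adjusted p = 0.145). Without brown replicate 3 the difference was -0.23. It was called higher in white with the deposited scaling (-1.18, adjusted p = 0.0179), and its second probe set, 1457126_at, was absent on all 6 arrays. Myl3, the ventricular and slow skeletal light chain, gave 104, 161 and 127 in brown and 67.0, 88.4 and 85.6 in white on probe set 1428266_at. Its arrays did not overlap, but it was present on only 2 of them and was not tested. Actc1, the cardiac actin, gave 57.0, 89.8 and 76.1 in brown and 48.9, 24.0 and 36.7 in white without being called present on any array. Myh6, the alpha heavy chain of heart, was present on brown replicate 1 alone, on 1 of its 2 probe sets. Myh7, Myh7b, Myl2, Myl7, Tnni3 and Tnnt2 were absent on all 6 arrays. None of 9 heart markers on the array passed the detection filter, and their summed signal was 304 to 345 in brown and 262 to 331 in white.

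Without the detection filter, 5 of the 49 probe sets that had not been tested were called higher in brown. Over all 79 members the count was then 9 in brown and 16 in white, where 12.8% and 14.1% of all probe sets were called. The 5 belonged to Myh2 (2.34, adjusted p = 0.0342), Tnni1 (2.37, adjusted p = 0.00999), Actc1 (1.06, adjusted p = 0.0426), Myl3 (0.69, adjusted p = 0.0374) and Ttn (2.40, adjusted p = 0.0284). Only the Myl3 probe set was called present on any array, so that the other limma differences compare signals not called present on any array.

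The smooth muscle forms were higher in white for each of the 3 tested probe sets, 1 per gene, where 29.9% of all tested probe sets were. Acta2, the actin of smooth muscle and of contractile fibroblasts, gave 816, 775 and 893 on the brown arrays and 2382, 2403 and 2356 on the white arrays. The groups were well apart, at 828 ± 59.8 and 2380 ± 23.6, a 2.88-fold ratio (log2 difference -1.52 ± 0.068, limma adjusted p = 5.22e-08). Its probe set 1416454_s_at is of a kind that can read related genes, and the other 2 Acta2 probe sets were absent on all 6 arrays. Myh11, the smooth muscle heavy chain, gave 53.6, 45.2 and 52.4 in brown and 88.8, 183 and 129 in white. It was called present on every white array and on brown replicate 1, with a difference of -1.35 ± 0.257 (limma adjusted p = 0.00141). Myl9, the smooth muscle regulatory light chain, was absent on every brown array at 284, 199 and 292. It was present on every white array at 520, 594 and 554, a 2.18-fold ratio (-1.12 ± 0.147, limma adjusted p = 0.000112). No smooth form was called higher in brown, by limma or at an unadjusted p under 0.05 (0 of 3).

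Other smooth muscle genes went both ways. Over all tested genes, read on 1 probe set each, 33.0% were higher in white and 28.3% in brown. Those shares stand beside the main counts of each list in this paragraph. Of 11 markers on the array 4 were tested. Synpo2, an actin-bundling protein (-3.99), and Tagln, transgelin (-1.81), were higher in white, while Pln, the inhibitor of the calcium pump (0.71), and the small heat shock protein Hspb6 (0.32) were higher in brown. With the deposited scaling 2 were higher in white and 0 in brown. Cnn1, a calponin specific to smooth muscle, was absent on all 6 arrays. The summed signal of the list was 700 to 743 in brown and 1310 to 1392 in white. Pericytes, the contractile cells of small vessels, were represented by 8 tested markers, of which Cspg4 (1.12) and Rgs5 (0.19) were higher in brown and Pdgfrb (-0.45) in white. Notch3 was not called (-0.19, limma adjusted p = 0.167). Their summed signal was 5438 to 5808 in brown and 5073 to 5348 in white, and with the deposited scaling 1 was higher in brown and 5 in white. All 11 mesothelial markers, from the cell layer that covers epididymal fat, were higher in white, against 33.0% of all genes. Their summed signals were 325 to 399 in brown and 3211 to 3589 in white. Of the 11, 8 were absent on all brown arrays and passed the filter only through the white arrays. So did Krt18, which was marginal on brown replicate 1. Among the 8 were Msln, Upk3b and Gpm6a. Msln was at least 12.5-fold and Gpm6a at least 27.1-fold higher in white, and Upk3b was 31.0-fold higher. Of 9 epididymis markers, 8 were absent on all 6 arrays and 1 was tested and not called, with summed signals of 203 to 261 in brown and 202 to 213 in white. The part of these cells in the smooth muscle differences was not tested.

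Among the non-muscle forms, 6 of 10 tested probe sets were higher in white and 1 in brown, where 29.9% and 24.6% of all tested probe sets were. The 6 include 4 of Myh9. With 1 probe set per gene, 3 of 5 genes were higher in white (background 33.0%). Myh9, the heavy chain of non-muscle myosin IIA, had 5 probe sets, all tested. Probe set 1420172_at gave 1050, 851 and 952 in brown and 2225, 2409 and 2372 in white. The means were 951 ± 99.3 and 2335 ± 97.4, a 2.46-fold ratio (log2 difference -1.30 ± 0.082, limma adjusted p = 5.98e-07). Probe set 1420171_s_at had a difference of -1.23, and 1420170_at, absent on all brown arrays, was 3.48-fold higher in white. Probe set 1417472_at had -0.53 (-1.64 in the authors' deposited series table), so that 4 of the 5 were called higher in white. The fifth, 1440708_at, had signals of 25.3 to 59.9, overlapping between the tissues, and was not called (-0.39 ± 0.365). The 4 called differences kept their direction and call in every alternative in which the probe set was tested, and without any 1 array.

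Myh10, the heavy chain of non-muscle myosin IIB, was not called. Its probe set 1452740_at gave 282, 405 and 282 in brown and 420, 363 and 445 in white, with overlapping arrays (-0.36 ± 0.152, limma adjusted p = 0.0711). The overlap comes from brown replicate 2 lying above white replicate 2. Without white replicate 2 the difference was -0.45 and was not called (limma adjusted p = 0.0596). Without brown replicate 2 the difference was -0.53 and was called (limma adjusted p = 0.00404). The deposited scaling also called it (-0.82, adjusted p = 0.00108). Myh14, the third non-muscle heavy chain, was absent on all 6 arrays.

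The regulatory light chains of non-muscle myosin, Myl12a and Myl12b, are near-identical proteins encoded side by side. Myl12a on probe set 1420820_at gave 1338, 1521 and 1380 in brown and 3330, 3176 and 3624 in white, a 2.39-fold ratio (-1.26 ± 0.071, limma adjusted p = 2.68e-07). Myl12b on probe set 1428608_at gave 1186, 1268 and 1302 in brown and 2704, 2654 and 2879 in white, a 2.19-fold ratio (-1.13 ± 0.062, limma adjusted p = 2.23e-07). Neither pair of groups overlapped. Such similar transcripts may share probes, so the 2 genes cannot be taken as separate measurements.

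A second Myl12a probe set, 1450013_at, went the other way. It gave 132, 143 and 134 in brown and 105, 100 and 90.0 in white (0.47 ± 0.142, limma adjusted p = 0.0178), but was present on only 1 brown array. Its direction turned with the deposited scaling (-0.08), and its call was lost without white replicate 3 (0.41, limma adjusted p = 0.0669). The second Myl12b probe set, 1428609_at, was absent on all 6 arrays.

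Myl6, the essential light chain of smooth and non-muscle myosin, gave 176, 308 and 199 in brown and 258, 257 and 274 in white on its 1 probe set with a single symbol. The arrays overlapped and it was not called (-0.25 ± 0.188, limma adjusted p = 0.288). Without brown replicate 2 it was called higher in white (-0.49, limma adjusted p = 0.0078), as it was with the deposited scaling (-0.76). Myl6b, a related light chain, was absent on all 6 arrays at 5.64 to 8.65 in brown and 46.1 to 52.5 in white. It was called higher in white only without the detection filter (-2.84, limma adjusted p = 0.00127).

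The tropomyosins, rods that lie along the actin filament, had 10 tested probe sets. Of these 7 were higher in white and 0 in brown by limma (0 also at an unadjusted p under 0.05). Over all tested probe sets the shares were 29.9% and 24.6%. Each of the 4 genes had at least 1 that was higher in white. Among the 7, 3 were called present only on white arrays, so they passed the filter through the tissue where they were higher. They were Tpm2 1419738_a_at, Tpm2 1425028_a_at and Tpm3 1427567_a_at. Tpm4, mainly a non-muscle tropomyosin, gave 521, 549 and 363 in brown and 2208, 1901 and 2056 in white. Its means were 478 ± 100.1 and 2055 ± 154, a 4.36-fold ratio (log2 difference -2.12 ± 0.142, limma adjusted p = 9e-07). Tpm3, which gives slow muscle and non-muscle forms by splicing, gave 570, 633 and 524 in brown and 1725, 1826 and 1833 in white on probe set 1427260_a_at, a 3.13-fold ratio (limma adjusted p = 1.12e-07). Its probe set 1436958_x_at gave 228, 152 and 169 in brown and 1037, 1107 and 1112 in white, with a difference of -2.59 ± 0.14. That probe set is of a kind that can read related sequences, and its difference was -0.95 in the authors' deposited series table. The third tested Tpm3 probe set, 1427567_a_at, had -1.30.

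Tpm1 and Tpm2, the main tropomyosins of striated and smooth muscle, gave different results from different probe sets. Tpm1 on 1423721_at had 178, 134 and 119 in brown and 296, 285 and 292 in white (-1.04 ± 0.153, limma adjusted p = 0.000263). In the authors' deposited series table that difference was -0.06. On 1423049_a_at it had 108, 88.6 and 71.9 in brown and 72.3, 88.5 and 89.3 in white, which overlapped (0.09 ± 0.2, limma adjusted p = 0.73). The latter turned to -0.44 with the deposited scaling, to -0.06 without brown replicate 1 and to -0.01 without white replicate 1.

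Tpm2 on 1419738_a_at had 290, 293 and 206 in brown and 516, 442 and 513 in white, a 1.88-fold ratio (-0.91 ± 0.146, limma adjusted p = 0.000459). On 1419739_at, present on all 6 arrays, it had 137, 108 and 87.8 in brown and 84.4, 82.2 and 84.5 in white (0.38 ± 0.189, limma adjusted p = 0.114). That difference was called without brown replicate 3 (0.54, limma adjusted p = 0.0335) and was -0.16 with the deposited scaling. Probe set 1425028_a_at, absent on all brown arrays, was 1.55-fold higher in white (-0.63 ± 0.232, limma adjusted p = 0.0428). Leaving out a single array ended that call for brown replicate 1 (0.0818) and 3 (0.1) and for white replicate 2 (0.146) and 3 (0.166). The fourth, 1449577_x_at, had 28.3, 14.3 and 24.0 in brown and 22.8, 35.3 and 25.5 in white and was not called (-0.36 ± 0.395). In the authors' deposited series table it was called higher in white (-2.01, limma adjusted p = 2.23e-05). The splice form behind each probe set was not analysed here.

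**Figure D4:**
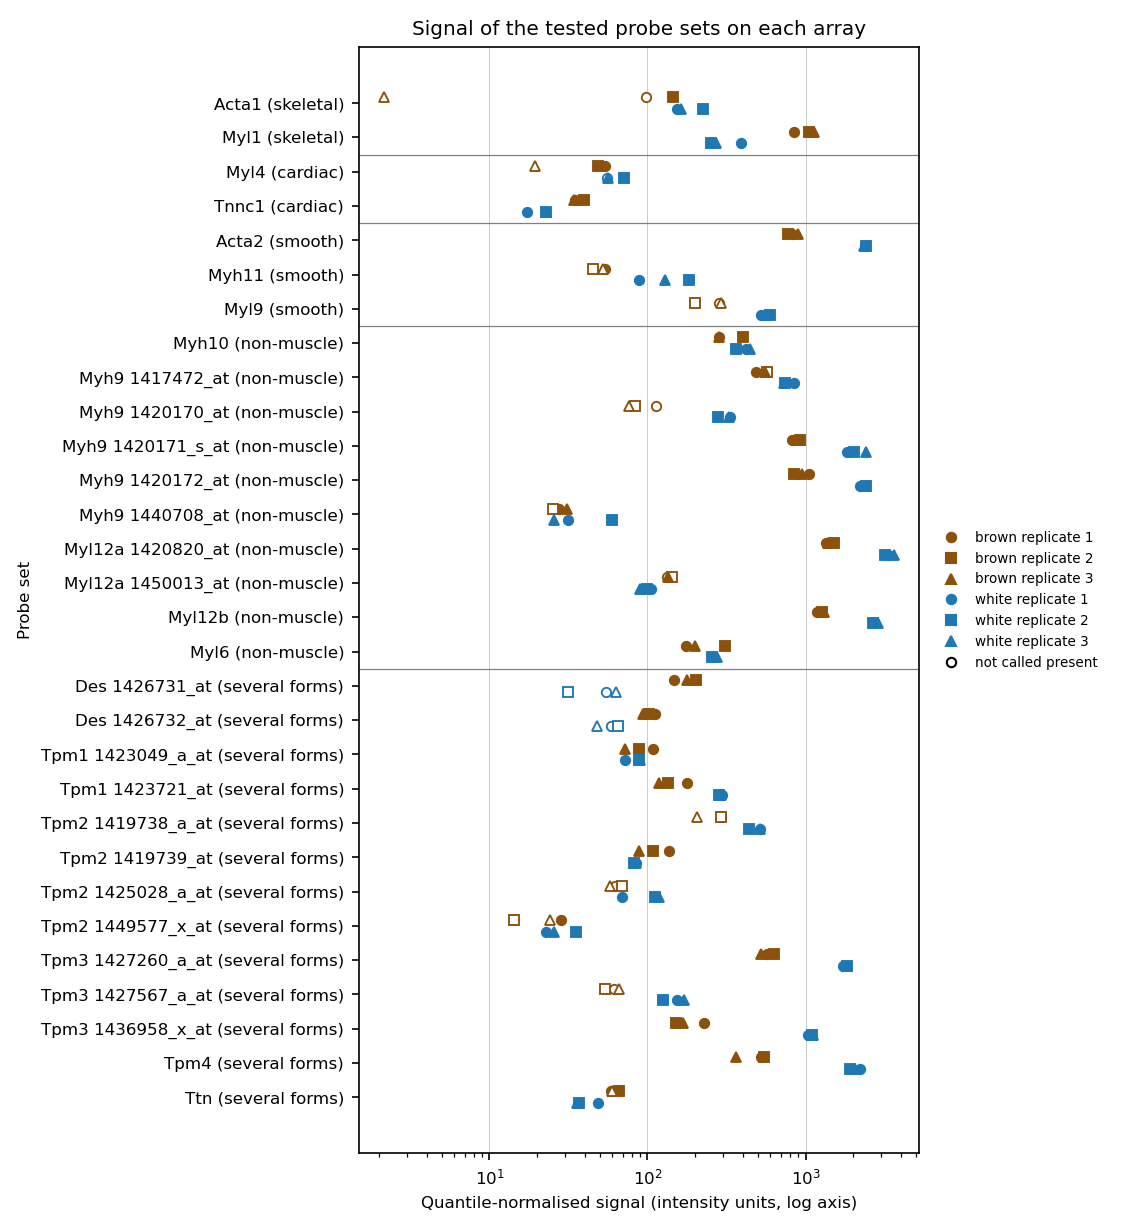
Quantile-normalised signal (log axis) of the 30 tested probe sets on each array, grouped by form, with open symbols where the probe set was not called present. Acta2, Myh9 1420172_at, Tpm3 1427260_a_at and Tpm4 have white arrays above every brown array, and Myl1 and Des 1426731_at the reverse.

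Des and Ttn, which build the scaffold of muscle fibres, were on the brown side. Des encodes desmin, the intermediate filament of skeletal, heart and smooth muscle. On probe set 1426731_at it was present on every brown array at 148, 204 and 177 and absent on every white array at 54.5, 31.2 and 63.5. The ratio was 3.68-fold (1.88 ± 0.265, limma adjusted p = 0.000195). On 1426732_at it gave 111, 102 and 93.6 in brown and 58.9, 65.0 and 47.8 in white (0.84 ± 0.19, limma adjusted p = 0.00385), a call lost with the deposited scaling (0.34, adjusted p = 0.144). Both probe sets put every brown array above every white one.

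Ttn encodes titin, the giant spring of the sarcomere. Only 1 of its 6 probe sets, Ttn 1444638_at, was tested. It gave 59.0, 66.5 and 59.7 in brown and 49.0, 36.7 and 35.6 in white (0.62 ± 0.23, limma adjusted p = 0.0425). Leaving out a single array ended the call for brown replicate 1 (0.0637), 2 (0.095) and 3 (0.0688) and for white replicate 2 (0.118) and 3 (0.127), and the difference was 0.16 with the deposited scaling. Of the other 5 probe sets, 4 were absent on all 6 arrays and 1 was present on white replicate 3 alone.

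Other genes of the sarcomere were rarely detected. Of 30 such genes on the array, 21 were absent on all 6 arrays and 6 were tested, 1 of which was higher in brown: Myom3, a protein of the M band (85.0 ± 6.70 in brown against 40.7 ± 17.4 in white, 1.15, limma adjusted p = 0.0105). With 1 probe set per gene, 28.3% of all genes were higher in brown. With the deposited scaling 0 of the 6 were higher in brown and 1 in white. Unc45b, a myosin chaperone, was not called (-0.18). The alpha-actinins of the Z disc, Actn2 and Actn3, and the myosin-binding proteins Mybpc1, Mybpc2 and Mybpc3 were absent throughout on the probe sets read.

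The genes that regulate smooth and non-muscle myosin went mostly with the heavy and light chains. Of 16 tested, 11 were higher in white and 1 in brown, with a median log2 difference of -0.71. With 1 probe set per gene, 33.0% and 28.3% of all genes were. The largest differences towards white were in Cald1, caldesmon, which binds actin and holds back myosin (298 ± 106 in brown against 1705 ± 91.2, -2.58), in Mylk, the kinase that phosphorylates the regulatory light chain (227 ± 45.8 against 1138 ± 39.3, -2.34), and in the calponin Cnn2 (-1.89). Ppp1cb, the catalytic subunit of the phosphatase that reverses the kinase, was higher in brown (0.83, limma adjusted p = 5.8e-06). The probe sets read for Ppp1cb (1433540_x_at) and Cald1 (1424769_s_at) are of kinds that can read related sequences. Srf, the factor that binds the CArG box, was not called (-0.39, limma adjusted p = 0.131). Ppp1r12c, a subunit that targets the same phosphatase, was not called either (-0.30).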

How the data were processed

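Per the file headers, each of the 6 deposited array files lists probe sets with a linear signal intensity, its detection call and a detection p-value. Their software and scaling remain not given in the sources used here. A series table of intensities by the authors runs opposite to the array files in tissue and served only as an alternative, with its sign turned. Of 45101 probe sets, 64 controls were left out, and symbols came from the platform annotation. The 41 member symbols were unchanged in RefSeq, and 4 probe sets naming a myosin gene among several symbols were left out.

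Signals (1 value of 0 set to 0.1) were taken to log2 and quantile-normalised, since the 2% trimmed means differed 1.37-fold between arrays, and tested in limma 3.58.1 (R 4.3.3; lmFit, eBayes with a trend). The fit was tested on simulated data. Where all arrays of the dimmer tissue were absent, "at least" sets the brighter mean log2 signal against, per array, the higher of the lowest present signal and the probe set's own. Where its own signal was the higher on every array, the plain ratio is given. "At least" is not a confidence limit.

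All member genes with a tested probe set are named. From each other list up to 3 genes called in the main direction, 2 in the other and 1 not called are named, with defining markers added. Members, forms and lists were chosen with earlier results of these data known. Replicate numbers were not used to pair the samples in the main fit. Deviations of same-numbered arrays correlated at -0.05 to 0.02, which cannot tell whether they came from the same mouse.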

Additional observations from a re-analysis of the deposited data

How the results depend on the processing

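Counts are of members called by limma; 5 were higher in brown and 16 in white. Deposited and spike-in scaling each gave 2 in brown (several-form 1, non-muscle 0) and 1 skeletal and 1 cardiac probe set in white. Median centring gave 0 non-muscle in brown. Median centring over the tested probe sets, an alternative chosen after seeing the data, gave 1 cardiac in brown. Without the detection filter all 79 were tested and 9 were higher in brown (12.8% of all probe sets were), with 3 skeletal and 2 cardiac. Among probe sets present on all 6 arrays, fewer were tested, and 2 were higher in brown (cardiac 1, non-muscle 0, several-form 0) and 9 in white (smooth 1, several-form 4). With 64 units added, 1 skeletal probe set was higher in white and 1 cardiac in brown; without a trend, 1 cardiac in brown. With probe sets whose names end in _x_at, _s_at or _a_at left out, 19 were tested, with 9 in white (several-form 2 of 6). No skeletal probe set was then tested, Myl1 1452651_a_at included, so 0 skeletal were higher in brown. With 1 probe set per gene there were 3 in brown (non-muscle 0) and 10 in white (non-muscle 3, several-form 4). Leaving out 1 array gave 3 to 5 in brown and 15 to 19 in white, with 0 to 1 skeletal in white and 0 to 1 non-muscle in brown. With the replicate number as a block there were 4 in brown and 16 in white, the lost call being Ttn 1444638_at (adjusted p = 0.0771).

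Signs turned for Myl4 (0.048) and Tnnc1 (-0.12) in the series table, for Myl12a 1450013_at (-0.077 with deposited and spike-in scaling), for Tpm1 1423049_a_at (-0.44 with both, and -0.056 to 0.24 with 1 array left out, -0.01 without white replicate 1) and for Tpm2 1419739_at (-0.16 with both); the cause was not tested. With 3 arrays per tissue, precision is limited. An absent call was not always a low signal, as Myl9 was absent on the brown arrays at 284, 199 and 292.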
